A study of Homo sapiens with 10 samples.

Results

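The GIMAP genes encode GTPases of immunity-associated proteins, and 7 of them, GIMAP1, GIMAP2, GIMAP4, GIMAP5, GIMAP6, GIMAP7 and GIMAP8, were followed here. They were chosen by gene name, as 7 of the 60573 genes in the count table, because GIMAP8 was among the most reduced genes in cells with a guide to EFNB2. The question was whether the genes beside it fell with it. The 10 RNA libraries were made from U266, a cell line of malignant human plasma cells (multiple myeloma). In 5 of them, lettered A to E, the cells held a guide RNA aimed at the transcription start of EFNB2, the gene of the ephrin-B2 ligand. The other 5, also lettered A to E, held a scrambled guide without a target and served as controls. All cells of both groups were modified by lentivirus to make dCas9-VPR, which joins a nuclease-dead Cas9 to activators of transcription, and stayed under puromycin and blasticidin. Whether either population was a clone, and whether the libraries are separate cultures, is not stated in the labels, so the p-values reflect the spread among these libraries alone.

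GIMAP proteins share a GTP-binding domain of the AIG1 type and are known above all from lymphocytes, where several of them act in survival and development. GIMAP5 is needed for the survival of T cells in rats and mice, GIMAP1 for mature T and B cells in mice, and GIMAP4 has been tied to T cell death in rodents. GIMAP2 sits on lipid droplets, GIMAP7 is a partner that stimulates its GTP hydrolysis, and GIMAP6 binds the autophagy protein GABARAPL2. GIMAP8 is the longest member and carries several GTP-binding domains in a single chain.

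The 7 genes lie together on chromosome 7, from 150450630 to 150743646 in RefSeq's GRCh38 annotation, a span of 293.0 kb. GIMAP8 (150450630 to 150479393, plus strand) opens the cluster. GIMAP7 (150514872 to 150521073), GIMAP4 (150567390 to 150573953), GIMAP6 (150625375 to 150632385), GIMAP2 (150685706 to 150693641), GIMAP1 (150716613 to 150724284) and GIMAP5 (150737418 to 150743646) follow, and GIMAP6 alone lies on the minus strand. LINC00996, a long intergenic non-coding RNA (150433654 to 150448140, plus strand), ends 2.49 kb before GIMAP8 begins. The windows from 250 bases before to 50 bases after the start of 4 of these genes are shown 5′ to 3′ because the results set GIMAP8 and LINC00996 apart from GIMAP6 and GIMAP2. They are RefSeq sequences of GRCh38.p14 at chr7:150450380-150450679 for GIMAP8, chr7:150433404-150433703 for LINC00996, chr7:150632336-150632635 (minus strand) for GIMAP6 and chr7:150685456-150685755 for GIMAP2. Capitals mark 6-letter matches on either strand. The letters searched were GGAAGT for the ETS family, TGTGGT for the RUNX family, AGATAA for the GATA family, CACGTG for the E-box and TATAAA for the TATA box.
GIMAP8: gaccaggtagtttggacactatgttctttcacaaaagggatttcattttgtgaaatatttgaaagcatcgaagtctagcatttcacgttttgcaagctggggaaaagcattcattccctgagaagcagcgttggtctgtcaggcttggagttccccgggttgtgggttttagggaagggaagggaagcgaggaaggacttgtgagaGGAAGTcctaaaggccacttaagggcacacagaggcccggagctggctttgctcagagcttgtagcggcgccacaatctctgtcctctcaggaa
LINC00996: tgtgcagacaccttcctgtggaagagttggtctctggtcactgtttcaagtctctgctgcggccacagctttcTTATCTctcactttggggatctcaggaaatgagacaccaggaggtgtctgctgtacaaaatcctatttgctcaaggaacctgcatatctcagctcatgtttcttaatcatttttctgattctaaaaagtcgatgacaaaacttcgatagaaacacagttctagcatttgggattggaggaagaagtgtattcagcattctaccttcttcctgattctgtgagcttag
GIMAP6: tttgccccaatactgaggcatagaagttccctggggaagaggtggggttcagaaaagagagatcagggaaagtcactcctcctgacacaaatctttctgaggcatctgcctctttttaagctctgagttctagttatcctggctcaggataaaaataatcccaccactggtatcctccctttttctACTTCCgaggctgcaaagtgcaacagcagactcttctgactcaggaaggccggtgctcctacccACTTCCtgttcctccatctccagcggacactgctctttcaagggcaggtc
GIMAP2: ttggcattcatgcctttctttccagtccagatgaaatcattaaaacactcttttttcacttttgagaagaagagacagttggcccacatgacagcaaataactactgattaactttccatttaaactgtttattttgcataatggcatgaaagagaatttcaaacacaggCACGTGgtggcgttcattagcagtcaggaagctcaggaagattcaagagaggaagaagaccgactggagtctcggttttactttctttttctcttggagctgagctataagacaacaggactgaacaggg
The ETS-type letters stood 44 bases before the start of GIMAP8 and at 2 places in the GIMAP6 window, and 23.2% of 27305 promoter windows of the same length held them. The E-box in the GIMAP2 window occurred in 7.43% of all windows, and the GATA-type letters in the LINC00996 window in 10.5%. The RUNX-type letters (13.1% of all windows) and the TATA box (12.0%) matched in none of these 4. The windows of the other members, not shown, were searched too. GIMAP4 held the ETS-type letters 37 bases before its start and an E-box. GIMAP5 held the ETS-type letters at 2 places, GIMAP7 a TATA box match and GIMAP1 no match. The GIMAP8 window held 8 CG dinucleotides, the LINC00996 and GIMAP6 windows 3 each and the GIMAP2 window 4, against a median of 14 over all windows. These matches are a description of letters and were not tested for binding.

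Libraries held 47267929 to 56513336 counts. EFNB2 itself, which checks the labels, averaged 1.21 CPM ± 0.198 in cells holding its guide, against 0.119 CPM ± 0.0509 in controls (SD, n = 5 each), where CPM are counts relative to the TMM-scaled library size, per 1e6 reads. It was higher by 3.32 on the log2 scale (SE 0.25; adjusted p = 4.69e-08, edgeR's quasi-likelihood test over 17833 genes), and the groups did not overlap (exact permutation test, two-sided, p = 0.00794, the smallest that 5 against 5 libraries allow). Of 10 plasma cell markers, several were abundant. IGHE, the heavy chain gene of the line's IgE, was at 3046 and 3447 CPM with the EFNB2 and the control guide. In the same order, SDC1 was at 2121 and 3015 CPM and the transcription factor gene IRF4 at 667 and 648 CPM. Others were low, with CD38 at 8.03 and 1.78 CPM and MZB1 at 3.54 and 5.57 CPM. With the EFNB2 guide CD38 was higher (log2 fold change 2.17, SE 0.17) and SDC1 lower (-0.51, SE 0.05). Markers of cell types that normally express GIMAP genes were mixed. CD3E, a subunit of the T cell receptor complex, was at 2.85 and 3.21 CPM with the EFNB2 and the control guide, and CD247 of the same complex at 0.487 and 0.672 CPM. The B cell receptor gene CD79B was at 5.01 and 6.11 CPM and the endothelial gene PECAM1 at 1.75 and 2.21 CPM with the EFNB2 and the control guide. In contrast, CD3D and CD3G, further subunits of the T cell receptor complex, averaged at most 0.00754 CPM with either guide, and MS4A1, the B cell gene of CD20, at most 0.0151 CPM. TRAT1, another T cell gene, and CDH5, the cadherin of endothelial cells, had no count in any library.

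GIMAP8 was 3.65-fold lower with the EFNB2 guide, while the well-measured members of the cluster, GIMAP2 and GIMAP6, were at about the same level with both guides. GIMAP8 had 60, 52, 55, 48 and 41 counts in libraries A to E of the EFNB2 guide, against 197, 165, 227, 198 and 209 counts in libraries A to E of the control guide. As CPM these were 1.10, 1.01, 1.15, 0.984 and 0.811 with the EFNB2 guide and 3.72, 3.20, 4.07, 3.64 and 3.81 with the control guide. All 5 libraries of the EFNB2 guide thus lay below all 5 controls, with a wide gap between the groups. The means were 1.01 CPM ± 0.131 for the EFNB2 guide and 3.69 CPM ± 0.316 for controls (SD, n = 5 each), and the log2 fold change was -1.87 (SE 0.11), a 3.65-fold lower level with a 95% interval of 0.233 to 0.322 for the fold. This fall is what brought the family into view, so it is given as a description with no test. For scale, 36 of the 17833 tested genes (0.202%) had a log2 fold change at least as low as that of GIMAP8, itself included. In bulk RNA, fewer cells with GIMAP8 transcripts and fewer transcripts per cell cannot be told apart.

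**Figure D1:**
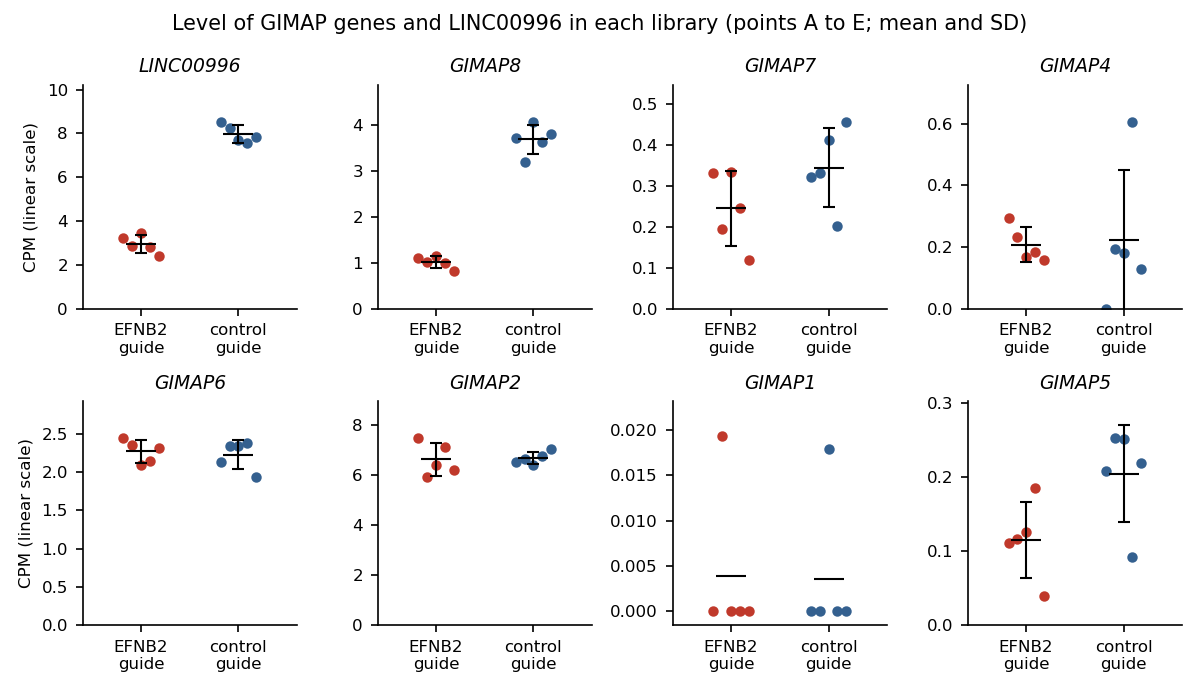
Level of LINC00996 and the 7 GIMAP genes in CPM (linear axes, each with its own range) in libraries A to E of the EFNB2 guide (left, red) and of the control guide (right, blue); black marks give the mean and SD, the SD being left out for GIMAP1, which had 1 count with each guide. The groups are apart for LINC00996 and GIMAP8 and overlap for the other 6 genes.

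GIMAP2, the lipid droplet member, was the most abundant GIMAP transcript. It had 407, 307, 306, 347 and 315 counts in libraries A to E of the EFNB2 guide and 346, 343, 358, 369 and 387 counts in libraries A to E of the control guide. The groups overlapped completely, and the EFNB2 guide held both the highest library (7.48 CPM in A) and the lowest (5.93 CPM in B). Means were 6.63 CPM ± 0.642 for the EFNB2 guide and 6.69 CPM ± 0.245 for controls (SD, n = 5 each), and the log2 fold change was -0.01 (SE 0.07, adjusted p = 0.905). The 95% interval of the fold ran from 0.896 to 1.10.

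GIMAP6, the partner of the autophagy protein GABARAPL2, had 133, 122, 100, 105 and 117 counts in libraries A to E of the EFNB2 guide and 113, 121, 131, 130 and 106 counts in libraries A to E of the control guide. Here too the groups overlapped. The means were 2.271 CPM ± 0.146 for the EFNB2 guide and 2.23 CPM ± 0.193 for controls (SD, n = 5 each; log2 fold change 0.03, SE 0.09, adjusted p = 0.834), and the interval of the fold was 0.888 to 1.17. The sign of the fold change of GIMAP2 and of GIMAP6 turned under some settings, since both lay close to 0, and neither passed the threshold of an adjusted p of 0.05 under any setting tried.

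GIMAP7, the partner of GIMAP2 and the next gene after GIMAP8 on the chromosome, was weakly expressed. It had 18, 10, 16, 12 and 6 counts in libraries A to E of the EFNB2 guide and 17, 17, 23, 11 and 25 counts in libraries A to E of the control guide. The EFNB2 guide held the lowest library, but 3 of its 5 libraries lay within the control range. Means of 0.245 CPM ± 0.0922 for the EFNB2 guide and 0.344 CPM ± 0.0975 for controls (SD, n = 5 each) gave a log2 fold change of -0.49 (SE 0.29) that did not pass (adjusted p = 0.191). Its interval, a fold of 0.461 to 1.10, reached down to a reduction of more than 2-fold but not to that of GIMAP8. Since GIMAP8 was chosen for its fall, this is a description, and the difference between the 2 genes was not tested. The ratio of the summed counts of GIMAP7 was 0.709 (95% exact Poisson interval 0.506 to 0.989), an interval that covers counting error and no spread between libraries.

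GIMAP5, the T cell survival gene, GIMAP4 and GIMAP1 did not reach the minimum count for the test. GIMAP5 had 6, 6, 6, 9 and 2 counts in libraries A to E of the EFNB2 guide and 11, 13, 14, 5 and 12 counts in libraries A to E of the control guide. All libraries of the EFNB2 guide were below 4 of the 5 controls, and the D control library lay among them. Summed counts stood in a ratio of 0.561 (exact Poisson limits 0.345 and 0.895), and an exact permutation test of the CPM gave a two-sided p of 0.0556. In edgeR's test without a filter the log2 fold change was -0.82 (adjusted p = 0.148). GIMAP5 entered the test when some libraries were left out, and it then passed in 2 cases, without the D control library (adjusted p = 0.0265) and without the D library of the EFNB2 guide (-1.04, adjusted p = 0.0445). The annotated span of GIMAP5 in GENCODE 29 overlaps that of GIMAP1 and of the read-through gene GIMAP1-GIMAP5, so its few counts are less certain.

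GIMAP4 had 16, 12, 8, 9 and 8 counts in libraries A to E of the EFNB2 guide and 0, 10, 10, 33 and 7 counts in libraries A to E of the control guide. The control group held both extremes, no count in library A, where 3 counts would be 0.0567 CPM, and 0.606 CPM in library D. The ratio of summed counts was 0.94 (interval 0.637 to 1.38; exact permutation test, two-sided, p = 0.937). GIMAP1 had 1 count in each group, and the read-through GIMAP1-GIMAP5 and the pseudogene GIMAP3P had none.

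Among the 4 members that entered the test, GIMAP8 was the 1 gene called lower and 0 were called higher, and their median log2 fold change was -0.25. Over all tested genes 45.4% were called, 22.6% lower and 22.8% higher, and the median was 0.01. The EFNB2 guide had its 5 libraries wholly below the controls for 15.2% of genes and wholly above them for 15%. Since GIMAP8 was chosen for this contrast and GIMAP4, GIMAP5 and GIMAP1 were too weak to enter, nothing is read from that count. Over 19 alternative settings its log2 fold change ran from -1.91 to -1.24. The value of -1.24 came from the deposited normalized values on the log2(value + 1) scale, which understates changes of weak genes.

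Per length of annotated exons (GENCODE 29), the order of the members differed between the guides only in the place of GIMAP8. With the EFNB2 guide GIMAP2 stood first at 3.16 CPM per kb ± 0.306, then GIMAP6 at 0.58 ± 0.0374, GIMAP8 at 0.241 ± 0.0313, GIMAP7 at 0.195 ± 0.0734, GIMAP4 at 0.0944 ± 0.0256, GIMAP5 at 0.0191 ± 0.00855 and GIMAP1 at 0.000798 CPM per kb (SD, n = 5). The ranges of GIMAP8 and GIMAP7, and of GIMAP7 and GIMAP4, overlapped there. With the control guide GIMAP2 stood at 3.19 CPM per kb ± 0.117, GIMAP8 at 0.881 ± 0.0756, GIMAP6 at 0.57 ± 0.0494, GIMAP7 at 0.274 ± 0.0776, GIMAP4 at 0.101 ± 0.104, GIMAP5 at 0.0339 ± 0.0109 and GIMAP1 at 0.000739 CPM per kb (SD, n = 5). Among the controls the ranges of GIMAP7 and GIMAP4, and of GIMAP4 and GIMAP5, overlapped. GIMAP8 was therefore above GIMAP6 in every control library and below it in every library of the EFNB2 guide.

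The make-up of the cluster's counts gives the same selected fall of GIMAP8 in another form and is a description only. Of the summed counts of the 7 members, GIMAP8 held 9.38%, 10.2%, 11.2%, 9.06% and 8.38% in libraries A to E of the EFNB2 guide, against 28.8%, 24.7%, 29.7%, 26.5% and 28.0% in libraries A to E of the control guide. The exact Clopper-Pearson 95% interval nearest to the other group reached 14.3% with the EFNB2 guide (library C) and 21.4% with the control guide (library B), counting error only. The mean share was 9.64% ± 1.09 with the EFNB2 guide and 27.5% ± 1.99 with the control guide (SD, n = 5 each). Together the other 6 members were at 9.47 CPM ± 0.783 for the EFNB2 guide and 9.69 CPM ± 0.313 for controls. GIMAP2 made up 63.2% ± 2.04 of the counts with the EFNB2 guide and 50.01% ± 1.98 with the control guide (SD, n = 5 each).

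**Figure D2:**
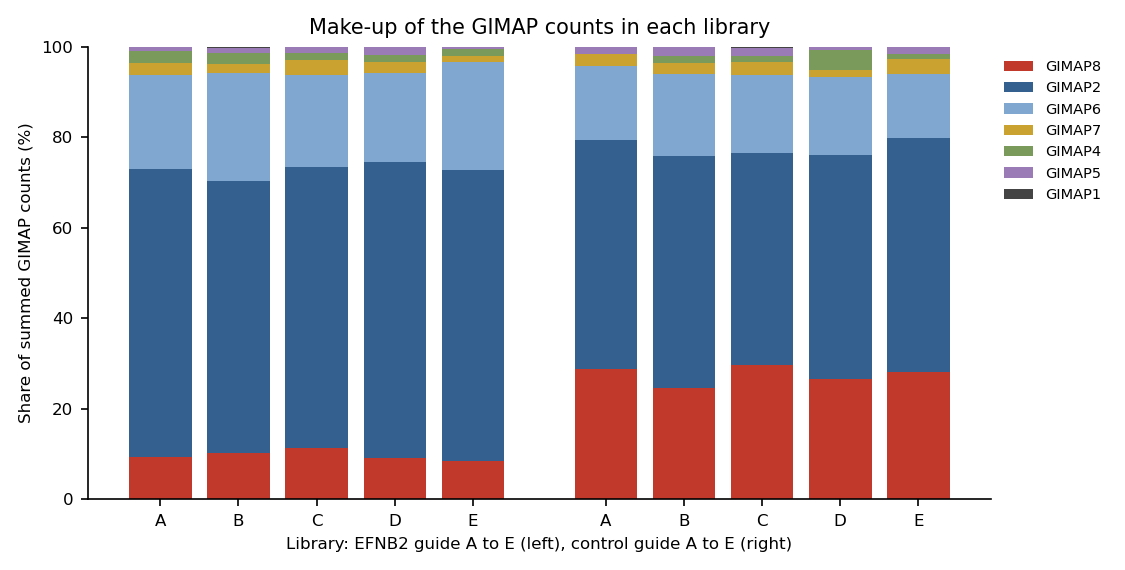
Share (%) of each GIMAP gene in the summed counts of the 7 genes, 1 bar per library, with the EFNB2 guide on the left and the control guide on the right. The red GIMAP8 segment is 8.38% to 11.2% of the bar with the EFNB2 guide and 24.7% to 29.7% with the control guide.

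Beyond the cluster, the genes within 1 Mb on either side were compared. LINC00996, the non-coding gene just before GIMAP8, was 2.70-fold lower with the EFNB2 guide, and it had the largest fall of all 39 tested neighbours. It had 176, 148, 164, 138 and 121 counts in libraries A to E of the EFNB2 guide and 451, 425, 429, 411 and 429 counts in libraries A to E of the control guide, and the groups were far apart. The means were 2.95 CPM ± 0.401 for the EFNB2 guide and 7.96 CPM ± 0.408 for controls (SD, n = 5 each), with a log2 fold change of -1.43 (SE 0.09, 95% interval -1.61 to -1.25, adjusted p = 3.06e-09). No other annotated gene overlaps LINC00996 or GIMAP8 in GENCODE 29. LINC00996 passed under all 19 settings, with log2 fold changes from -1.49 to -1.21.

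Of 71 neighbours, 39 were tested, of which 10 were called lower and 7 higher, with a median log2 fold change of 0.01. The share called lower was 25.6% and the share called higher 17.9%, against 22.6% and 22.8% of all tested genes. Chromosome 7 as a whole gave 23.6% lower and 18.4% higher among 869 tested genes, with a median of -0.00258. The number called higher among the neighbours was 11 without the control A library and 12 without both A libraries. On the side before GIMAP8, 6 of 20 tested genes were called lower and 2 higher, and on the side after GIMAP5, 4 of 19 were called lower and 5 higher. Between the members lie 6 processed pseudogenes, which held 1 count in all and were not tested.

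Between LINC00996 and the remaining genes before the cluster the change dropped to a small size. The next tested neighbours, the zinc finger gene ZNF775 (-0.35, SE 0.07, adjusted p = 0.0013) and the overlapping non-coding model AC073111.4 (-0.42, SE 0.06), did not overlap between the guides, nor did the zinc finger gene REPIN1 (-0.17, SE 0.03, 185 and 207 CPM with the EFNB2 and the control guide). LRRC61 (-0.30, adjusted p = 0.0251) and AC005586.2 (-0.23, adjusted p = 0.0392) were also called lower, but LRRC61 was not called in 4 of the 19 settings (adjusted p from 0.0022 to 0.077 over all settings) and AC005586.2 in 10 (0.0238 to 0.102). Farther out, KRBA1 (0.20) and AC004877.1 (0.36) were higher, and AC004877.1 was not called without the C library of the EFNB2 guide (adjusted p = 0.0601). AC004877.1 lies within the more abundant ZNF862 on the opposite strand. LRRC61 overlaps AC005586.2 and ZBED6CL on the same strand, so LRRC61 and AC005586.2 may not be separate falls. The same holds for ZNF775 and AC073111.4, which also overlap on the same strand.

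Just after the cluster, TMEM176B, TMEM176A and AOC1 were too weak to test, with 8, 3 and 17 counts over the libraries of the EFNB2 guide and 0, 0 and 16 over the control libraries. Farther on, NOS3, the endothelial nitric oxide synthase gene, was higher (0.87, SE 0.17, 12.8 CPM ± 4.06 and 7.04 CPM ± 1.23 with the EFNB2 and the control guide, n = 5 each). Its values were 20.0, 12.1, 10.6, 11.2 and 10.3 CPM in libraries A to E of the EFNB2 guide and 4.97, 7.08, 8.03, 7.18 and 7.93 CPM in libraries A to E of the control guide, so that the A library was farthest from the other group for both guides. ATG9B, a lipid scramblase gene of the autophagy pathway that overlaps the end of NOS3 on the opposite strand, was lower (-1.23, SE 0.21). With the EFNB2 guide it was at 1.63 CPM in library A and 0.656 to 0.794 CPM in B to E, against 1.90 to 2.53 CPM in controls. Its log2 fold change ran from -1.57 to -1.13 when single libraries were left out. The strand setting of the counting is not given in the sources used here, and the reads of such overlapping pairs cannot be fully told apart. The anion exchanger gene SLC4A2 (0.25), TMUB1 (0.14), ASIC3 (0.33) and AC010973.2 (0.38) were higher, ASIC3 not being called in 8 of the 19 settings. AC010973.2 overlaps the more abundant SLC4A2 on the opposite strand, so the same limit holds for it. AGAP3 (-0.18), NUB1 (-0.18) and PRKAG2, a regulatory subunit gene of AMP-activated kinase (-0.47), were lower.

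**Figure D3:**
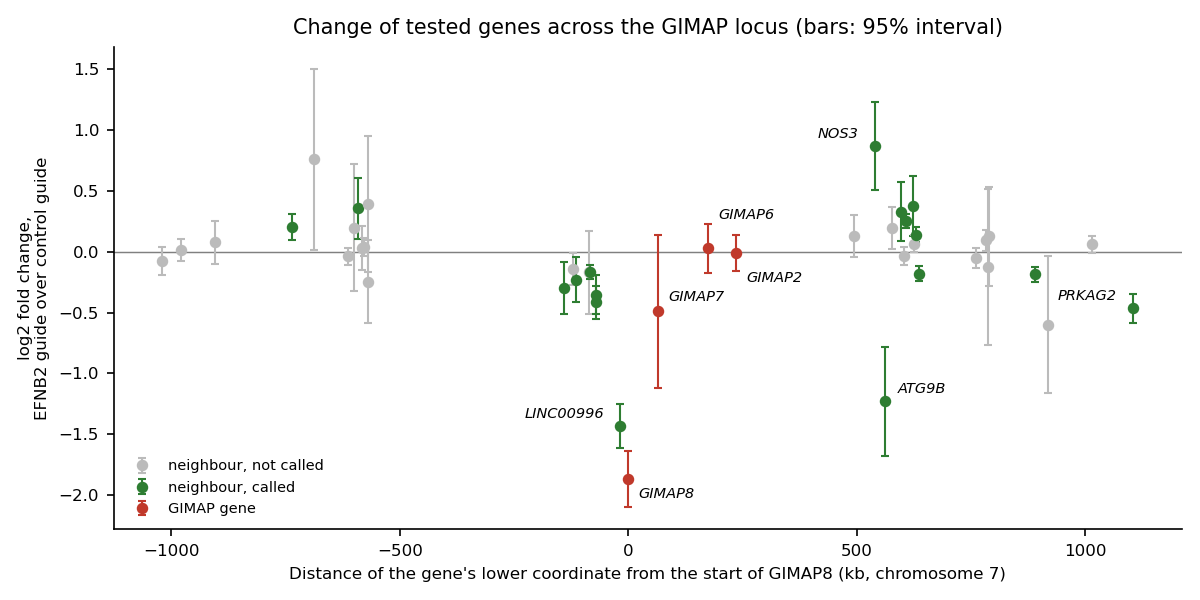
Log2 fold change (EFNB2 guide over control guide) of each tested gene against the distance, in kb, of its lower coordinate from the start of GIMAP8 on chromosome 7; points give the estimate and bars the 95% interval, with GIMAP genes in red, called neighbours in green and other neighbours in grey. GIMAP8 (-1.87) and LINC00996 (-1.43) are the lowest points and lie side by side, and GIMAP6 (0.03) and GIMAP2 (-0.01) are at the zero line.

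The profile of GIMAP8 over the 10 libraries was compared with those of 11569 other tested genes, those without a clone name whose average log2 CPM reached 1, by the root mean square distance between log2 CPM values after each gene's mean was taken away. The 5 closest were SCUBE1 (distance 0.12 on the log2 scale), the chemokine gene CCL4 (0.16), the glutathione transferase gene GSTA4 (0.16), ASTN1 (0.17) and ARMCX1 (0.20). SCUBE1 lies on chromosome 22, CCL4 on 17, GSTA4 on 6, ASTN1 on 1 and ARMCX1 on X. Their log2 fold changes ran from -1.98 to -1.71, which is what the measure selects for. LINC00996 came 7th of the 11569, at a distance of 0.23, whereas GIMAP2 (0.92) and GIMAP6 (0.95) ranked 5516th and 7087th. These ranks largely restate the fold changes given above, set against a gene chosen for its fall, and are no separate result. GIMAP7, below the minimum level for the comparison, was at 0.76.

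**Figure D4:**
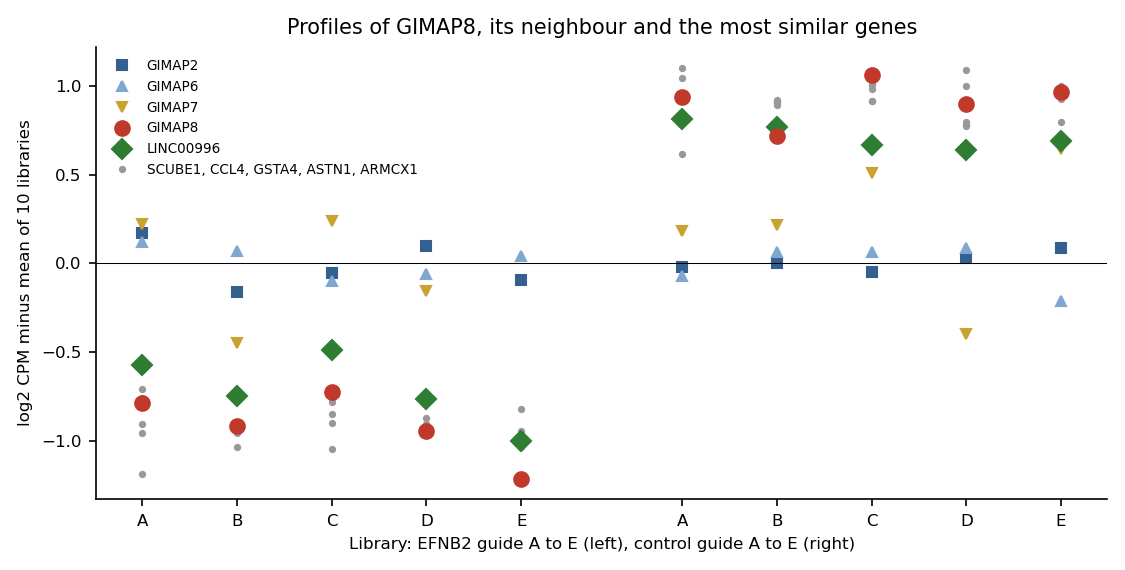
Log2 CPM minus the gene's mean over the 10 libraries, for libraries A to E of the EFNB2 guide (left) and of the control guide (right). GIMAP8 (red circles), LINC00996 (green diamonds) and the 5 closest genes (grey dots) lie below 0 in every library of the EFNB2 guide and above 0 in every control, while GIMAP2 and GIMAP6 stay near 0.

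Other GTPases and immune signalling regulators of lymphocytes were described as a list of 20 genes, of which 13 were tested, 5 were called lower (38.5%) and 2 higher (15.4%), with a median log2 fold change of 0.01. Over all tested genes 22.6% were called lower and 22.8% higher, with the same median to 2 decimals. The genes of this list were chosen with earlier results of these data known, so nothing is read from its counts. The largest falls were those of GVINP1, a pseudogene of a very large interferon-inducible GTPase (-1.46, SE 0.19; 0.559 CPM ± 0.0859 and 1.54 CPM ± 0.375 with the EFNB2 and the control guide, n = 5 each), the antiviral dynamin-like GTPase gene MX2 (-0.85, SE 0.03; 28.0 and 50.4 CPM) and the atlastin gene ATL3 (-0.28). The secretory GTPase gene RAB27A (0.36) and NKIRAS2 (0.09), an inhibitor of NF-kB signalling, were higher, and NKIRAS2 was not called in 2 of the 19 settings (adjusted p up to 0.0773). Of the 7 guanylate-binding protein genes (GBP1 to GBP7), GBP3 alone was abundant enough to test (-0.11, adjusted p = 0.0591).

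A further list held 24 genes of pathways in which GIMAP proteins have been placed. Most were of the BCL2 family, ATG8-type autophagy proteins, lysosome and GSK3 pathway genes, and DHCR7 and PRKCA stood beside these classes. Of the 24 genes, 22 were tested, 9 were called lower (40.9%) and 2 higher (9.09%), with a median log2 fold change of -0.09. Over all tested genes 22.6% were called lower and 22.8% higher, with a median of 0.01. In either direction 11 of the 22 were called, near the 45.4% of all tested genes. This list too was chosen with earlier results of these data known, so nothing is read from its counts. The autophagy genes MAP1LC3B (-0.32, SE 0.04; 131 and 163 CPM) and GABARAPL1 (-0.29, SE 0.04; 27.8 and 34.0 CPM) and the vesicle tethering gene VPS41 (-0.25, SE 0.03; 156 and 186 CPM) had the largest falls among those called, each pair of levels being with the EFNB2 and the control guide. GABARAPL2, the described partner of GIMAP6, was at 75.9 CPM ± 2.83 for the EFNB2 guide and 76.9 CPM ± 5.07 for controls (SD, n = 5 each; log2 difference -0.02, adjusted p = 0.755). The sterol reductase gene DHCR7 (0.30) and the survival gene BCL2L1 (0.19) were called higher. The number called higher was 5 without the D control library and 4 without the E control library. When single libraries were left out, the number called lower ran from 7 to 12.

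Transcription factors of lymphoid cells, in which GIMAP genes are mostly expressed, made up a list of 31 genes. Of these, 26 were tested, 11 were called lower (42.3%) and 9 higher (34.6%), and the median log2 fold change was 0.01. Both shares were above those of all tested genes, 22.6% lower and 22.8% higher, where the median was also 0.01. Only 6 of the 26 were not called, while 45.4% of all tested genes were called. The list was chosen with earlier results of these data known, so nothing is read from its counts. RUNX1 (-1.14, SE 0.14), GATA3, a T cell factor (-1.08, SE 0.14; 0.707 and 1.49 CPM), and the T cell factor TCF7 (-0.89, SE 0.05; 7.12 and 13.2 CPM) fell most. RUNX1 was at 5.03, 3.90, 3.72, 3.61 and 3.42 CPM in libraries A to E of the EFNB2 guide and 5.78, 9.23, 9.19, 10.1 and 9.20 CPM in libraries A to E of the control guide, with the control A library well below the other controls. MYB (1.05, SE 0.08; 31.6 and 15.3 CPM), KLF2 (0.66, SE 0.07; 31.3 and 19.9 CPM) and ID2 (0.51, SE 0.05; 19.1 and 13.4 CPM) rose most.

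Markers of plasma cells and of other cell types were measured beside these results, and their part in them was not tested. The counts of called markers stand against 22.6% lower and 22.8% higher among all tested genes. The 10 plasma cell genes, 4 called lower and 4 higher, summed to 8543 to 8935 CPM with the EFNB2 guide and 8936 to 10111 CPM with the control guide. Of 12 T cell genes 4 were tested, and CD8A (-0.73, SE 0.18) and CD247 (-0.46, SE 0.18, adjusted p = 0.0478) were called lower. The summed level of the 12 genes was 4.43 to 4.78 CPM with the EFNB2 guide and 4.87 to 6.90 CPM with the control guide. These ranges did not overlap. The same held for the NK cell sum below, which was higher, and for the plasma cell sum, also lower, whose ranges almost touched (8935 and 8936 CPM). Of single tested genes, 15.2% lay wholly below the controls and 15% wholly above, and no such share was computed for sums of genes. Most of the T cell sum came from CD3E (2.85 and 3.21 CPM), which did not pass (log2 fold change -0.17, adjusted p = 0.314). The summed levels of 7 B cell genes (5.75 to 6.33 and 5.33 to 8.33 CPM; 3 tested, 1 called lower) and of 6 endothelial genes (1.58 to 2.06 and 1.57 to 2.52 CPM; 1 tested, 0 called) overlapped between the EFNB2 and the control guide. The 7 NK cell genes (3 tested, 2 called higher and 1 lower) summed to 24.3 to 28.2 and 20.4 to 22.5 CPM, mostly from NCAM1 (24.4 and 19.3 CPM), which myeloma cells can also express. The 6 myeloid genes (2 tested, 1 called higher) summed to 2.42 to 3.40 and 2.06 to 2.58 CPM. KLRF1 of NK cells and S100A8 of myeloid cells had no count in any library.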

How the data were processed

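RNA-seq libraries of U266 cells, 5 per guide, were grouped by the labels' titles. Raw counts of reads per gene were deposited by the authors. GRCh38, STAR 2.27a, Partek and DESeq2 stand in the submitters' processing notes, with no role for each. For counting, neither the annotation nor the strand setting is given in the sources used here. Per the labels' protocols, libraries were poly(A)-selected and strand-specific. The authors also deposited a normalized signal, on inspection the count plus 0.0001 times a constant per library (within 0.000497% for counts above 100), used only as an alternative. Of 60577 rows, 4 named no gene (at most 0.000401% of counts) and were left out.

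TMM scaling and edgeR 4.0.16 were applied to the 17833 genes that passed filterByExpr (R 4.3.3, glmQLFit and glmQLFTest, guide as the only term, Benjamini-Hochberg adjustment, threshold 0.05). The standard error is the absolute log2 fold change over the square root of F, and intervals use its t distribution. Log2 CPM used a prior count of 2. Positions came from RefSeq by symbol, or GENCODE 29. At these depths 3 counts are 0.0537 to 0.0627 CPM. The members and lists were chosen with earlier results of these data known. Named were the members, EFNB2, called neighbours, up to 3 rises and 3 falls per list, markers, and the 5 profiles nearest to GIMAP8; further genes, such as GABARAPL2, GBP3 and untested neighbours, were named after their values were seen. Alternatives were DESeq2 1.42.0, limma-voom (limma 3.58.1), RLE scaling, library totals, no filter, at least 1 CPM in 5 libraries, the normalized values as log2(value + 1), the replicate letter as a block, leaving out each library and, chosen after seeing the data, both A libraries. The steps were also run on simulated counts with few changed genes, unlike these data, so no error rate is taken from them.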

Additional observations from a re-analysis of the deposited data

Results flagged for a closer look

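GIMAP5 in the D control library stood at 0.0918 CPM (5 counts), apart from the other 4 control libraries, which lay between 0.208 and 0.252 CPM. Its gap to the nearest control was 0.724 of the range of the group, above the critical value of 0.71 for 5 samples. A gap of that size arises by chance in about 1 in 20 groups, and more than 1 group was looked at. The counts are also few, 5 against 11 to 14 in the other controls. The same library held the highest GIMAP4 value (33 counts, 0.606 CPM), whose gap was below the limit.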

How the results depend on the processing

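Under the alternatives, 764 of 796 values of 42 named genes kept their direction and side of the threshold, 25 lost the call and 7 changed sign. All sign changes were of genes not called: GIMAP2 was 0.0037 with library totals alone and ran from -0.0571 to 0.0300 when single libraries were left out, and GIMAP6 was -0.0146 without both A libraries and ran from -0.0170 to 0.0611. Of the counts, the GIMAP genes called lower were 1 to 2 when single libraries were left out. Neighbours called higher were 5 to 11 in that case and 12 without both A libraries. Immune GTPases called higher were 4 with library totals alone or a minimum of 1 CPM in 5 libraries, and 1 with the replicate block or the authors' normalized values, against 2. Pathway genes called higher were 4 without a filter and 2 to 5 when single libraries were left out. The cause was not tested. GIMAP8 was -1.87 with the replicate block, and the genes called lower numbered 3338 in that fit, against 4027. Libraries of the same letter did not deviate together (correlations from -0.237 to -0.00305), so the letters were not taken as pairs. Depth limits GIMAP1, GIMAP4, GIMAP5 and GIMAP7, with at most 62 counts over the EFNB2 guide libraries and 93 over the controls.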
